A study of Mus musculus with 32 samples.

Results

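The genes described here are 6 transcriptional repressors and activators of the circadian clock, namely Nr1d1, Nr1d2, Rora, Ciart, Bhlhe40 and Bhlhe41. They were chosen by gene symbol and not by a cut on measured values, but with earlier results of these data known. Each matched 1 probe set, so that all 6 of 6 were measured among 23279 genes with a level on the arrays. No filter on low values was applied.

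RNA came from hindlimb muscle of C57BL/6 mice, and the arrays were of the type GeneChip Mouse Gene 2.0 ST, with short probes spread along each transcript. All mice had been held in cycles of 12 h light and 12 h darkness for 2 weeks with free access to food and water. The young mice were 8 weeks old and the aged mice 80 weeks old, and the tissue was collected at 8 times of day. These were zeitgeber times (ZT) 0, 3, 6, 9, 12, 15, 18 and 21, counted in hours from the onset of light, so that lights went off at ZT 12. Each of the 16 groups of 1 age and 1 ZT held 2 arrays, called repeat 1 and repeat 2, and each array carried a pool of RNA of 3 mice, which makes 32 arrays for 96 mice. The samples were collected at 16 times over 2 days, and the labels do not say whether a repeat number marks a day. The labels name no transgene and no agent in either age. The p-values measure the spread between pools and not between single mice. In tests of a daily curve or of the mean level by age, that spread also holds what the fitted model leaves out. The number of arrays, not a read depth, limits the precision.

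The clock of mammalian cells is a loop of transcription. The proteins BMAL1 (gene Arntl) and CLOCK activate genes through E-box elements, and the genes they activate include Nr1d1, Nr1d2, Ciart, Bhlhe40 and Bhlhe41. Nr1d1 and Nr1d2 encode REV-ERBα and REV-ERBβ, nuclear receptors that bind heme and repress genes with the help of the corepressor NCoR and the histone deacetylase HDAC3. Rora encodes RORα, which activates genes through the same response elements, so that REV-ERB and ROR proteins compete on genes such as Arntl, Cry1 and Nfil3. Bhlhe40 (DEC1) and Bhlhe41 (DEC2) encode helix-loop-helix repressors that bind E-boxes, and Ciart encodes CHRONO, a repressor that binds BMAL1. In skeletal muscle REV-ERBα is known as a regulator of mitochondrial content and autophagy, and RORα as a regulator of lipid metabolism.

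The stretch upstream of a gene is shown for the 4 of the 6 genes with a match of letters to a motif named below. Such stretches were searched since the members are known for being driven through clock elements. The RefSeq promoter table of build GRCm38.p6 held 5 of the 6 members, all but Bhlhe40, and the 250 bases before the annotated start were searched on both strands for 5 motifs. These were the E-box CACGTG, the related element CACGTT, the REV-ERB and ROR half-site AGGTCA and the D-box forms TTATGTAA and TTATGCAA. CACGTG reads the same on both strands, and no motif contains another. Capitals mark the matches, and each sequence runs 5′ to 3′ on the strand of its gene. Ciart lies on the minus strand at chr3:95882229-95882478, Bhlhe41 on the minus strand at chr6:145865421-145865670, Nr1d1 on the minus strand at chr11:98775378-98775627 and Nr1d2 on the minus strand at chr14:18239107-18239356.
Ciart: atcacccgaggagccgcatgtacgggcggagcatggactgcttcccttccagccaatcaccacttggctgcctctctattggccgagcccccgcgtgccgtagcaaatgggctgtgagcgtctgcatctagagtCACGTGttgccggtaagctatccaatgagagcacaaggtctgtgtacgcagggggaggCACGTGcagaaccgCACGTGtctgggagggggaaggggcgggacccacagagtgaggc
Bhlhe41: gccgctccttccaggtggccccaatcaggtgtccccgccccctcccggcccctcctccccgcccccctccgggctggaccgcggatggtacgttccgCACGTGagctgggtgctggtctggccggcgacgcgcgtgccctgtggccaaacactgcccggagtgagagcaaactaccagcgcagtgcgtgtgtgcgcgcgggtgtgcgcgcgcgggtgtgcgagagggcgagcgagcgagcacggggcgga
Nr1d1: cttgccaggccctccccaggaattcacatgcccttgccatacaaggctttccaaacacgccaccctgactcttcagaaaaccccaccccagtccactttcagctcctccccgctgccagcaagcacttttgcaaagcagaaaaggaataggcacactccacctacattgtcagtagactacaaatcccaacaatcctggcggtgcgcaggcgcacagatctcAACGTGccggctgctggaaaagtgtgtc
Nr1d2: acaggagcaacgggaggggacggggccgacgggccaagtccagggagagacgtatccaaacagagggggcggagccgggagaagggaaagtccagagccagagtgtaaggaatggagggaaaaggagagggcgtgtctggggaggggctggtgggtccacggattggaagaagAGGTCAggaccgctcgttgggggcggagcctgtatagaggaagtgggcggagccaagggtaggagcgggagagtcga

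The window of Ciart held CACGTG 3 times, beginning 116, 58 and 44 bases before the start. Of 32851 windows of the same length in the table, 1978 (6.02%) held CACGTG at least 1 time and 20 (0.0609%) held it 3 or more times. The window of Bhlhe41 held CACGTG 1 time, 153 bases before the start. That of Nr1d1 held CACGTT 1 time on the opposite strand, 28 bases before the start, a motif found in 3.85% of windows. That of Nr1d2 held AGGTCA 1 time, 77 bases before the start, a motif found in 14.0% of windows. The window of Rora held none of the 5 motifs, and the D-box forms, found in 0.819% and 0.694% of windows, were in none of the 5 members' windows. A match of letters is a description and not a binding site.

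Before the results, the tissue label was checked. All 12 listed transcripts of skeletal muscle fibres were measured. Acta1, the skeletal actin gene, lay between 13.41 and 13.66 and Ckm, the muscle creatine kinase gene, between 12.87 and 13.30 on the log2 scale, and the slow-fibre gene Tnnt1 between 6.56 and 9.67, on arrays with medians between 5.98 and 6.08. Each is read only for whether it was present, since levels of different probes have no common scale. A group of 6 arrays stood apart in transcripts of hepatocytes, with a mean of 14 measured marker genes between 7.68 and 10.0 against 5.84 to 7.07 on the other arrays. They were the young ZT 0 repeat 1, ZT 3 repeat 1, ZT 6 repeat 1, ZT 6 repeat 2 and ZT 18 repeat 2 arrays and the aged ZT 6 repeat 1 array. Tests of rhythm and of the mean level by age are given with and without them, and leaving them out removes both young arrays of ZT 6. The aged ZT 15 repeat 2 array had the highest mean of 8 fibroblast genes, 10.3 against a median of 8.12 in aged muscle.

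Rhythm over the day was tested with a curve of period 24 h, with a moderated F test of limma and Benjamini-Hochberg adjustment over all 23279 genes at 0.05. Of the 6 genes, 5 were rhythmic in young muscle, where 1.92% of all genes were, and 5 in aged muscle, where 0.696% of all genes were. With the ages together 5 of 6 were rhythmic, against 3.6% of all genes. Rora was the exception in all 3 tests. Without the 6 arrays with hepatocyte transcripts the counts were 5 in young, 4 in aged and 5 with the ages together. The young amplitudes were then 1.42 for Nr1d1, 0.37 for Nr1d2, 0.11 for Rora, 0.89 for Ciart, 0.32 for Bhlhe40 and 0.38 for Bhlhe41. The amplitude of a curve is how far its peak lies above its mean. The median amplitude was 0.37 over the 6 genes and 0.064 over all genes, both on the log2 scale with the ages together. In this pooled tissue, fewer cells of a type and less RNA per cell cannot be told apart.

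**Figure D1:**
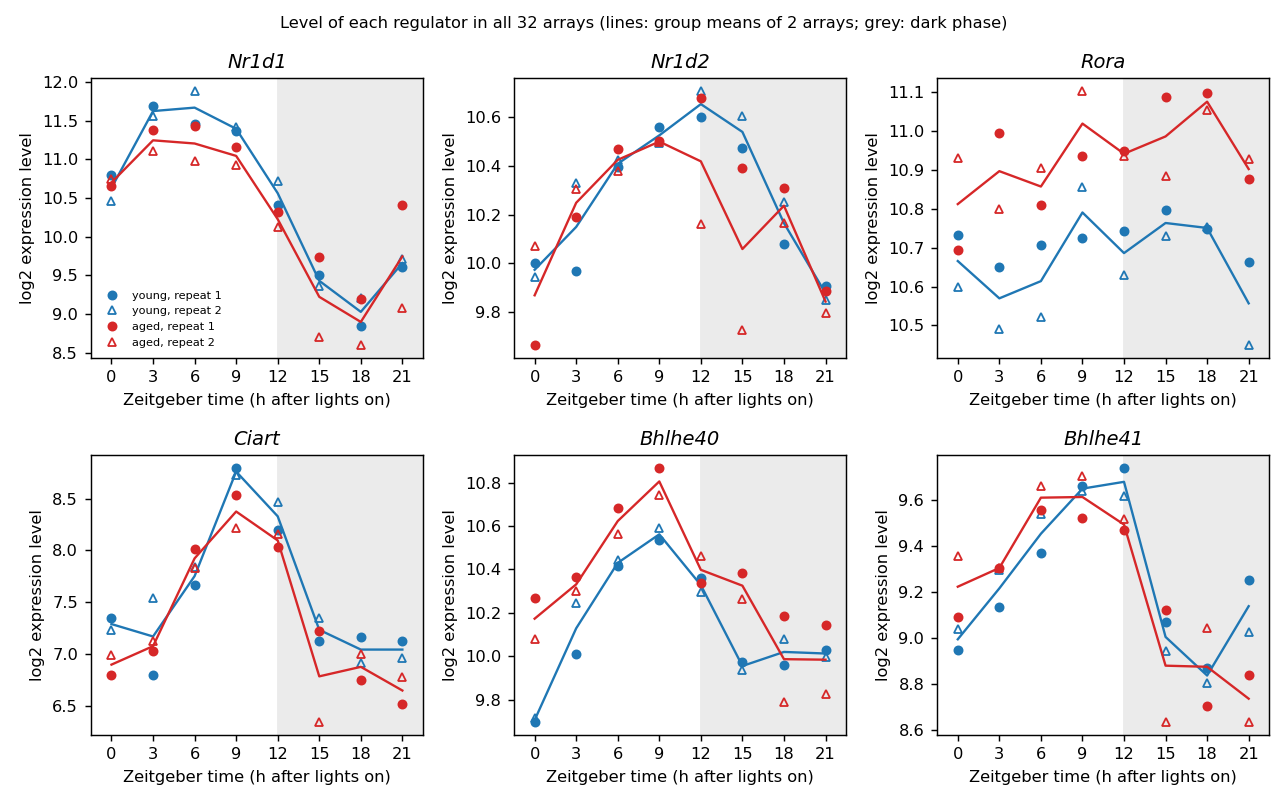
Log2 level (y axis) of each of the 6 genes against zeitgeber time in hours (x axis), in young and aged muscle. Each point is 1 array, a pool of 3 mice, the lines join the means of 2 arrays, and grey marks the dark phase. The scale differs between panels. Nr1d1 ranges from 8.60 to 11.88, while Rora stays between 10.45 and 11.10 with its aged arrays mostly above its young ones.

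Nr1d1, the gene of REV-ERBα, had the largest 24 h amplitude of all 23279 genes with the ages together. By amplitude it ranked 2 in young and 2 in aged muscle. In young muscle its log2 level was 10.80 and 10.47 at ZT 0, 11.69 and 11.56 at ZT 3, 11.46 and 11.88 at ZT 6, 11.37 and 11.42 at ZT 9, 10.41 and 10.72 at ZT 12, 9.50 and 9.36 at ZT 15, 8.85 and 9.21 at ZT 18 and 9.61 and 9.72 at ZT 21, where the first value of each pair is repeat 1. In aged muscle it was 10.66 and 10.74 at ZT 0, 11.38 and 11.11 at ZT 3, 11.44 and 10.97 at ZT 6, 11.16 and 10.93 at ZT 9, 10.32 and 10.13 at ZT 12, 9.74 and 8.70 at ZT 15, 9.20 and 8.60 at ZT 18 and 10.42 and 9.08 at ZT 21. Levels were high from ZT 3 to ZT 9 and low from ZT 15 to ZT 21 in both ages, and no array of ZT 3, 6 or 9 overlapped any array of ZT 12 to 21. The amplitude was 1.36 ± 0.107 (SE, n = 16) in young muscle, a 6.57-fold difference between trough and peak, and 1.19 ± 0.107 (SE, n = 16) in aged muscle, a 5.20-fold difference. The fitted peak was at ZT 5.72 ± 0.301 (SE) for young and at ZT 5.20 ± 0.344 for aged muscle, and limma's adjusted p was 3.23e-09 and 8.96e-08. With each age fitted alone, limma's adjusted p was 1.76e-08 in young and 0.000323 in aged muscle.

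Ordered by level, the young groups of Nr1d1 ran from ZT 6 at the top over ZT 3, 9, 0, 12, 21 and 15 to ZT 18 at the bottom. The arrays of ZT 6 and ZT 3 overlapped, as did those of ZT 0 and ZT 12, and the other 5 of 7 neighbours in that order did not. The aged order was ZT 3, 6, 9, 0, 12, 21, 15 and 18, and there only 2 of 7 neighbours were separate. Repeats of aged muscle lay further apart. The median gap between repeats was 0.23 in young and 0.37 in aged muscle, and the largest was 0.43 at ZT 6 in young against 1.34 at ZT 21 in aged muscle, where repeat 1 stood at 10.42 and repeat 2 at 9.08. In aged muscle repeat 1 was the higher one at 7 of 8 ZT, against 3 of 8 in young muscle. The SD within groups was 0.19 in young and 0.48 in aged muscle, while the SEs of the joint fit use 1 spread for both ages. The difference in spread between the ages was not tested.

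Nr1d2, the gene of REV-ERBβ, followed a flatter and later curve than Nr1d1. In young muscle its log2 level was 10.00 and 9.94 at ZT 0, 9.97 and 10.33 at ZT 3, 10.40 and 10.42 at ZT 6, 10.56 and 10.49 at ZT 9, 10.60 and 10.71 at ZT 12, 10.47 and 10.61 at ZT 15, 10.08 and 10.25 at ZT 18 and 9.91 and 9.85 at ZT 21. In aged muscle it was 9.66 and 10.07 at ZT 0, 10.19 and 10.31 at ZT 3, 10.47 and 10.38 at ZT 6, 10.50 and 10.50 at ZT 9, 10.68 and 10.16 at ZT 12, 10.39 and 9.72 at ZT 15, 10.31 and 10.16 at ZT 18 and 9.89 and 9.80 at ZT 21. Levels were highest at ZT 12 and lowest at ZT 21 in young muscle, and highest at ZT 9 and lowest at ZT 21 in aged muscle. The amplitude was 0.37 ± 0.062 (SE, n = 16) in young (limma, adjusted p = 0.00157) and 0.30 ± 0.062 in aged muscle (adjusted p = 0.0372), or 1.67-fold and 1.51-fold from trough to peak. The young peak was at ZT 10.9 ± 0.641 (SE) and the aged one at ZT 9.21 ± 0.801.

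The aged rhythm of Nr1d2 was close to the threshold. The call was lost without any of 8 single aged arrays, namely ZT 0 repeat 1, ZT 12 repeat 1 and both repeats of ZT 6, ZT 9 and ZT 21, with limma's adjusted p from 0.0583 to 0.130, while the amplitude stayed between 0.26 and 0.30. It was also lost without the 6 arrays with hepatocyte transcripts, with an amplitude of 0.29 and an adjusted p of 0.139. With each age fitted alone, and so with its own spread, the aged rhythm of Nr1d2 was not called (limma, adjusted p = 0.242). At ZT 15 the aged repeats stood at 10.39 and 9.72, a gap of 0.67 and the widest of this gene. Repeat 2 there is the array with the highest fibroblast mean, and without it the aged peak of Nr1d2 moved from ZT 9.21 to ZT 10.2, with an amplitude of 0.31 (adjusted p = 0.00457).

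Rora, the gene of the activator RORα, moved little over the day. In young muscle its log2 level was 10.73 and 10.60 at ZT 0, 10.65 and 10.49 at ZT 3, 10.71 and 10.52 at ZT 6, 10.73 and 10.86 at ZT 9, 10.74 and 10.63 at ZT 12, 10.80 and 10.73 at ZT 15, 10.75 and 10.75 at ZT 18 and 10.66 and 10.45 at ZT 21. In aged muscle it was 10.69 and 10.93 at ZT 0, 11.00 and 10.80 at ZT 3, 10.81 and 10.90 at ZT 6, 10.94 and 11.10 at ZT 9, 10.95 and 10.94 at ZT 12, 11.09 and 10.89 at ZT 15, 11.10 and 11.05 at ZT 18 and 10.88 and 10.93 at ZT 21. The range within an age was small next to that of the repressors, 10.45 to 10.86 in young and 10.69 to 11.10 in aged muscle. Only 1 of 7 neighbours in the order of ZT levels was separate in either age. The amplitude was 0.085 ± 0.040 (SE, n = 16) in each age, and the rhythm did not pass limma's test in young (adjusted p = 0.502), in aged (adjusted p = 0.740) or with the ages together (adjusted p = 0.196, unadjusted p = 0.0165). The curves of the repeats of each age, fitted alone, peaked between ZT 12.9 and ZT 14.7.

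Ciart, the gene of CHRONO, had the 7th largest amplitude of all genes with the ages together. By amplitude it ranked 36 in young and 9 in aged muscle. In young muscle its log2 level was 7.35 and 7.23 at ZT 0, 6.80 and 7.54 at ZT 3, 7.67 and 7.84 at ZT 6, 8.80 and 8.73 at ZT 9, 8.20 and 8.46 at ZT 12, 7.12 and 7.34 at ZT 15, 7.17 and 6.92 at ZT 18 and 7.13 and 6.96 at ZT 21. In aged muscle it was 6.80 and 6.996 at ZT 0, 7.03 and 7.13 at ZT 3, 8.02 and 7.83 at ZT 6, 8.54 and 8.21 at ZT 9, 8.04 and 8.16 at ZT 12, 7.23 and 6.34 at ZT 15, 6.75 and 7.01 at ZT 18 and 6.52 and 6.78 at ZT 21. All arrays of ZT 9 and ZT 12 lay above all arrays of the other times in each age, with a sharp fall to ZT 15 and flat low levels through the night. The amplitude was 0.74 ± 0.120 (SE, n = 16) in young (limma, adjusted p = 0.000982) and 0.83 ± 0.120 in aged muscle (adjusted p = 0.000541), or 2.80-fold and 3.16-fold from trough to peak. The fitted peaks were at ZT 9.38 ± 0.620 (SE) and ZT 8.79 ± 0.554.

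The narrow peak of Ciart showed as a 12 h component of 0.34 ± 0.060 (SE, n = 32) on the log2 scale, with a maximum at ZT 9.72. It did not pass the test over all genes (limma, unadjusted p = 1.69e-05, adjusted p = 0.131), and it did without the young ZT 3 repeat 2 array (0.37, adjusted p = 0.0420) or without the aged ZT 18 repeat 2 array (0.36, adjusted p = 0.0361). Without the 6 arrays with hepatocyte transcripts it was smaller, 0.28. None of the 6 genes passed the test of a 12 h component, against 0.00859% of all genes (2 genes). At an unadjusted p under 0.05 there were 3 of the 6, and 905 of all genes.

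Bhlhe40, the gene of DEC1, rose during the day and fell around lights off. In young muscle its log2 level was 9.70 and 9.72 at ZT 0, 10.01 and 10.25 at ZT 3, 10.42 and 10.44 at ZT 6, 10.53 and 10.59 at ZT 9, 10.36 and 10.29 at ZT 12, 9.97 and 9.94 at ZT 15, 9.96 and 10.08 at ZT 18 and 10.03 and 10.00 at ZT 21. In aged muscle it was 10.27 and 10.08 at ZT 0, 10.36 and 10.30 at ZT 3, 10.68 and 10.56 at ZT 6, 10.87 and 10.74 at ZT 9, 10.34 and 10.46 at ZT 12, 10.38 and 10.27 at ZT 15, 10.18 and 9.79 at ZT 18 and 10.14 and 9.83 at ZT 21. ZT 9 was the highest time in both ages, and the lowest was ZT 0 in young and ZT 21 in aged muscle. The young repeats were close, with a median gap of 0.045, so that 5 of 7 neighbours in the young order were separate, against 2 of 7 in aged muscle with a median gap of 0.12. As for Nr1d1, repeat 1 was the higher one at 7 of 8 ZT in aged and at 3 of 8 in young muscle. The amplitude was 0.32 ± 0.054 (SE, n = 16) in young (limma, adjusted p = 0.00170) and 0.36 ± 0.054 in aged muscle (adjusted p = 0.000707), with peaks at ZT 8.93 ± 0.645 and ZT 8.22 ± 0.565.

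Bhlhe41, the gene of DEC2, had a similar amplitude to its relative. In young muscle its log2 level was 8.95 and 9.04 at ZT 0, 9.14 and 9.30 at ZT 3, 9.37 and 9.54 at ZT 6, 9.66 and 9.64 at ZT 9, 9.74 and 9.62 at ZT 12, 9.07 and 8.94 at ZT 15, 8.87 and 8.81 at ZT 18 and 9.25 and 9.03 at ZT 21. In aged muscle it was 9.09 and 9.36 at ZT 0, 9.31 and 9.31 at ZT 3, 9.56 and 9.66 at ZT 6, 9.52 and 9.71 at ZT 9, 9.47 and 9.52 at ZT 12, 9.13 and 8.64 at ZT 15, 8.71 and 9.05 at ZT 18 and 8.84 and 8.64 at ZT 21. The young maximum was at ZT 12 and the aged one at ZT 9, and the drop from ZT 12 to ZT 15 separated all arrays of the former from all arrays of the latter in each age. The amplitude was 0.36 ± 0.063 (SE, n = 16) in young (limma, adjusted p = 0.00282) and 0.44 ± 0.063 in aged muscle (adjusted p = 0.000499), with peaks at ZT 8.57 ± 0.670 and ZT 7.31 ± 0.549.

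**Figure D2:**
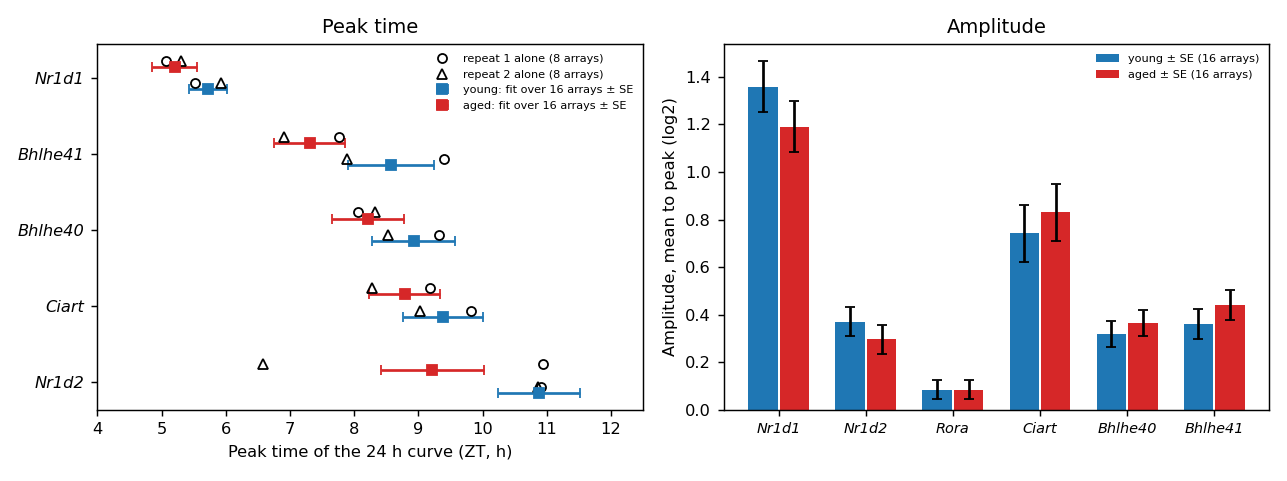
Left, time of the fitted 24 h peak (x axis, ZT in hours) of the 5 rhythmic genes in young and aged muscle. Squares stand for the 16 arrays of an age, with SE from the spread shared by both ages, and open symbols for each repeat alone. Right, amplitude (y axis, log2, mean to peak) of all 6 genes by age as bars from 0 with SE. Nr1d1 peaks first, at ZT 5.72 in young and ZT 5.20 in aged muscle, and has the largest amplitude of the 6 genes in both ages.

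The 5 rhythmic repressors did not peak together. The arrays form 4 series of 8 arrays, repeat 1 and repeat 2 of each age, and a curve was fitted to each. Nr1d1 peaked before each of the other 4 genes in all 4 series, by 1.61 to 3.88 h before Bhlhe41, 2.60 to 3.80 h before Bhlhe40, 2.99 to 4.31 h before Ciart and 1.28 to 5.86 h before Nr1d2. Bhlhe41 peaked before Ciart in 4 of 4 series, by 0.426 to 1.41 h. The order of Bhlhe41 and Bhlhe40, and of Bhlhe40 and Ciart, held in 3 of 4 series. Nr1d2 peaked after Ciart, Bhlhe40 and Bhlhe41 in 3 of 4 series and before all 3 of them in aged repeat 2, where its gap was -1.75 h to Bhlhe40 and -0.332 h to Bhlhe41. Apart from Bhlhe41 before Ciart, the order among Bhlhe41, Bhlhe40, Ciart and Nr1d2 was thus not the same in all series. An exact test over 4 series cannot reach 0.05, and none was run.

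With the ages together, the peaks ran from Nr1d1 at ZT 5.48 over Bhlhe41 at ZT 7.87, Bhlhe40 at ZT 8.55 and Ciart at ZT 9.07 to Nr1d2 at ZT 10.1. Of this order, the first place of Nr1d1 and that of Bhlhe41 before Ciart held in each series. Over the 32 arrays the level of Ciart correlated with that of Bhlhe41 at r = 0.858 and with that of Nr1d2 at r = 0.751, that of Bhlhe40 with Bhlhe41 at r = 0.718, and that of Nr1d1 with Nr1d2 at r = 0.320. Rora correlated with the other 5 at r between -0.276 and 0.258, values that also hold its age difference. Within an age, r ran from -0.243 to 0.351 in young and from -0.355 to 0.425 in aged muscle. Both ranges were lowest for Nr1d1 and highest for Nr1d2. These are descriptions of arrays that share the times of day.

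Other genes of the same pathway give the setting of these profiles. All 5 measured clock genes known for REV-ERB and ROR response elements (Arntl, Clock, Npas2, Cry1 and Nfil3) passed the rhythm test at either age and with the ages together. Their peaks with the ages together were at ZT 23.2 for Arntl, ZT 0.311 for Clock, ZT 0.0903 for Npas2, ZT 20.0 for Cry1 and ZT 20.3 for Nfil3, all in the night or at dawn and away from the day-time peaks of the REV-ERB genes. Of 7 clock genes driven through E-boxes (Per1, Per2, Per3, Cry2, Dbp, Tef and Hlf) 7 passed in young, 6 in aged and 7 with the ages together, with peaks from ZT 10.5 for Tef to ZT 13.4 for Per2, later than all 5 rhythmic members. The exception in aged muscle was Hlf (limma, adjusted p = 0.0583).

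Of the cofactors of REV-ERB and ROR, 11 of 13 listed genes were measured, and 1 was rhythmic with the ages together, where 3.6% of all genes were. It was Tbl1xr1, which encodes a part of the NCoR complex, with its peak at ZT 19.3 (limma, adjusted p = 0.00472). Hdac3 did not pass (adjusted p = 0.727). Of 11 measured kinases, ubiquitin ligases and a protease of the repressor arm, Usp2 alone was rhythmic with the ages together, with an amplitude of 0.45 and its peak at ZT 12.4. Of 12 measured genes of muscle metabolism and autophagy linked to REV-ERB, 0 were rhythmic by limma in young, in aged or with the ages together. The smallest adjusted p with the ages together among them was that of Ulk1, which encodes a kinase that starts autophagy, with an amplitude of 0.15 (adjusted p = 0.0722, unadjusted p = 0.00302). The medians of amplitude in these last 3 lists were 0.067, 0.058 and 0.061, next to 0.064 over all genes.

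Whether the rhythm itself differed between young and aged muscle was tested as the difference of the fitted curves. None of the 6 genes passed, as did 0% of all genes, with limma's adjusted p between 0.939 and 0.994. At an unadjusted p under 0.05 there were 0 of the 6 and 1293 of all genes. The fitted peaks of the 5 rhythmic genes were earlier in aged muscle. The shift was -0.52 ± 0.457 h (SE) for Nr1d1, -1.67 ± 1.03 h for Nr1d2, -0.60 ± 0.831 h for Ciart, -0.71 ± 0.857 h for Bhlhe40 and -1.26 ± 0.867 h for Bhlhe41. The 95% intervals all included 0, from -1.45 to 0.412 h for Nr1d1, the narrowest, to -3.76 to 0.425 h for Nr1d2.

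Each repeat alone gave the same picture for some genes only. Both aged series peaked before both young series for Nr1d1 (5.08 and 5.30 against 5.52 and 5.93), for Bhlhe40 (8.06 and 8.32 against 9.32 and 8.53) and for Bhlhe41 (7.77 and 6.91 against 9.40 and 7.88). The series overlapped for Ciart. The share of all genes with such an order of the series was not counted, and the test between the ages called none of these genes. For Nr1d2 the 2 young series and aged repeat 1 peaked at ZT 10.9 and aged repeat 2 alone at ZT 6.58, so that the aged shift of this gene lay in 1 series. Without the 6 arrays with hepatocyte transcripts Nr1d1 peaked at ZT 5.85 in young and ZT 5.20 in aged muscle, and Nr1d2 at ZT 10.5 and ZT 9.32. In the same fit the young peaks of Ciart, Bhlhe40 and Bhlhe41 were at ZT 8.23, 8.01 and 7.85 against aged peaks at ZT 8.82, 8.26 and 7.28, and the order of the ages turned for Ciart and Bhlhe40. The amplitudes of the ages differed by -0.17 ± 0.151 (SE, log2; 95% interval -0.48 to 0.14) for Nr1d1 and by between -0.074 and 0.088 for the other 5.

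The mean level over the day was compared between the ages with ZT as a factor. Of the 6 genes, Rora and Bhlhe40 were higher in aged muscle, where 9.67% of all genes were, and Ciart was lower, where 7.51% of all genes were. The median age difference over all genes was -0.0085 on the log2 scale. Nr1d1, Nr1d2 and Bhlhe41 did not pass the test. Over the 48 pairs of a member and a ZT, both aged arrays lay above both young ones in 15, against 19.6% of all pairs of a gene and a ZT, and below both in 11, against 19.5%.

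Rora was 1.20-fold higher in aged muscle, a difference of 0.26 ± 0.038 (SE, n = 32) on the log2 scale with a 95% interval of 0.18 to 0.34 (limma, adjusted p = 1.56e-05). Its mean was 10.67 ± 0.11 (SD, n = 16) in young and 10.94 ± 0.11 in aged muscle. Of the 16 aged arrays, 13 lay above the highest of the 16 young arrays, and how many of all genes do so was not counted. The aged group mean was above the young one at 8 of 8 ZT, as for 6.78% of all genes, and both aged arrays were above both young arrays at 7 of 8 ZT, all but ZT 0. That holds at 7 or more ZT for 1.99% of all genes. The difference was 0.31 within repeat 2 and 0.21 within repeat 1, where it missed the threshold (adjusted p = 0.0656), and 0.28 without the 6 arrays with hepatocyte transcripts (adjusted p = 0.000293). Rorb, a gene of the same receptor family and the only other one measured, was also higher in aged muscle, by 0.28 ± 0.075 (SE; adjusted p = 0.00784). The levels of Rorb were low, between 5.25 and 6.32 on arrays with medians between 5.98 and 6.08. Whether Rorb was detected above background was not tested.

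**Figure D3:**
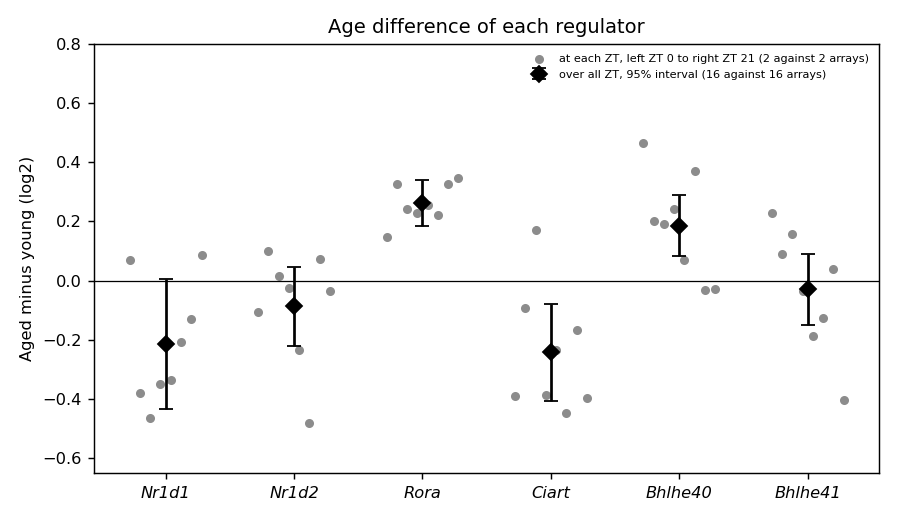
Aged minus young level (y axis, log2) of the 6 genes (x axis). Black diamonds are the fit over all 32 arrays with its 95% interval, and grey points the difference of group means at each time of day, from ZT 0 on the left to ZT 21 on the right. Rora is above 0 at all 8 times with a mean difference of 0.26, Bhlhe40 is higher by 0.19 and Ciart lower by 0.24.

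Bhlhe40 was 1.14-fold higher in aged muscle, by 0.19 ± 0.051 (SE, n = 32; 95% interval 0.082 to 0.29; limma, adjusted p = 0.0103). Its mean was 10.14 ± 0.28 (SD, n = 16) in young and 10.33 ± 0.30 in aged muscle, spreads that include the daily rhythm. Both aged arrays lay above both young ones at 5 of 8 ZT, namely ZT 0, 3, 6, 9 and 15, which holds at 5 or more ZT for 7.5% of all genes. The difference rested more on repeat 1, where it was 0.28, than on repeat 2, where it was 0.090 and did not pass (adjusted p = 0.562). Without the 6 arrays with hepatocyte transcripts it was 0.17 and missed the threshold (adjusted p = 0.0661). Its relative Bhlhe41 differed by -0.030 ± 0.058 (adjusted p = 0.789), and by -0.10 without those 6 arrays (adjusted p = 0.383).

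Ciart was lower in aged muscle by -0.24 ± 0.080 on the log2 scale (SE, n = 32; 95% interval -0.41 to -0.080), an aged level of 0.845 times the young one (limma, adjusted p = 0.0340). Its mean was 7.58 ± 0.65 (SD, n = 16) in young and 7.34 ± 0.69 in aged muscle. Both aged arrays lay below both young ones at ZT 0, 9, 12 and 21, that is at 4 of 8 ZT, and 11.1% of all genes do so at 4 or more ZT. The call was close to the threshold and was lost without any of 12 single arrays, with an adjusted p from 0.0506 to 0.0623. These were the young ZT 0 repeat 1, ZT 3 repeat 2, ZT 9 repeat 1, ZT 12 repeat 2, ZT 15 repeat 2, ZT 18 repeat 1 and ZT 21 repeat 1 arrays and the aged ZT 0 repeat 1, ZT 9 repeat 2, ZT 12 repeat 1, ZT 18 repeat 1 and ZT 21 repeat 1 arrays. Within repeat 1 the difference was -0.16 (adjusted p = 0.414), within repeat 2 -0.32 (adjusted p = 0.0920), and without the 6 arrays with hepatocyte transcripts -0.37 (adjusted p = 0.00293).

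Nr1d1 differed by -0.21 ± 0.107 between the ages (SE, n = 32; 95% interval -0.43 to 0.0056; limma, adjusted p = 0.184). Both aged arrays lay below both young ones from ZT 3 to ZT 12, that is at 4 of 8 ZT, and 11.1% of all genes do so at 4 or more ZT. The aged repeats disagreed. The difference was 0.081 within repeat 1 and -0.51 within repeat 2 (adjusted p = 0.0157), and without the aged ZT 21 repeat 1 array, the one at 10.42, it was -0.29 and passed (adjusted p = 0.0254). Without the 6 arrays with hepatocyte transcripts it was smaller, -0.14 (adjusted p = 0.575). Nr1d2 differed by -0.087 ± 0.066 (adjusted p = 0.411), and by -0.13 without those 6 arrays (adjusted p = 0.344), with both aged arrays below both young ones at ZT 15 only. The pair of REV-ERB genes thus gave no call for the mean level in the fit over all arrays.

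**Figure D4:**
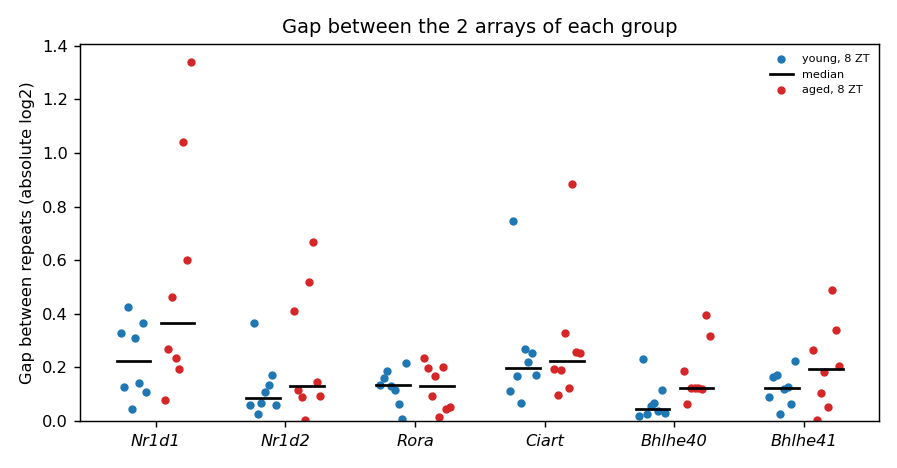
Absolute gap between repeat 1 and repeat 2 (y axis, log2) of the 6 genes (x axis) in young and aged muscle, with 1 point for each of 8 times of day and the median as a line. The widest gap is that of Nr1d1 in aged muscle at ZT 21, 1.34, and the medians of Nr1d1 are 0.23 in young and 0.37 in aged muscle.

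Tested at single times of day, no pair of a gene and a ZT passed. Of the 48 pairs of the 6 genes, 0 were called by limma, against 0.0977% of all pairs of a gene and a ZT (182 pairs). At an unadjusted p under 0.05 there were 8 of the 48, and 16867 of all pairs. Rora at ZT 21 had a difference of 0.35 (adjusted p = 0.281). Without the aged ZT 15 repeat 1 array, 1 of the 48 was called, Nr1d2 at ZT 15, with a difference of -0.82 (adjusted p = 0.0482). That value rests on the aged repeat 2 array alone. Whether the age difference depends on the time of day was tested over the 16 groups, and 0 of the 6 genes passed, as did 0% of all genes. At an unadjusted p under 0.05 there were 0 of the 6 and 771 of all genes.

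Among the pathway genes, some differed with age beside the members. Of the 5 genes with REV-ERB and ROR response elements, Arntl was higher in aged muscle by 0.24 ± 0.068 (SE; limma, adjusted p = 0.0129) and Clock by 0.31 ± 0.047 (adjusted p = 2.61e-05), and 0 were lower. Of the 7 E-box genes, Cry2 was higher by 0.28 (adjusted p = 0.000884) and 0 were lower. Of the 11 cofactors, 3 were higher, Tbl1xr1 by 0.36, Sirt1 by 0.21 and Ppargc1a by 0.16, and 0 were lower. Of the 11 kinases, ubiquitin ligases and a protease, Mycbp2 was higher by 0.27 and Fbxw7, which encodes a ubiquitin ligase subunit, by 0.14, and 0 were lower. Of the 12 genes of metabolism and autophagy, Stk11 was higher by 0.20 and Ppargc1a, which stands in both lists, by 0.16, while Pgam2, the muscle phosphoglycerate mutase gene, was lower by -0.34 and Ulk1 by -0.23. The median differences of these 5 lists were 0.0089, -0.071, 0.0092, 0.059 and 0.088, next to -0.0085 over all genes.

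Markers of cell types also differed between the ages, and their part in the age differences of Rora, Bhlhe40 and Ciart was not tested. The counts below stand next to 9.67% of all genes higher and 7.51% lower in aged muscle. Of 8 endothelial genes 7 were lower in aged muscle, with an array mean of 8.17 to 8.67 in young and 8.02 to 8.39 in aged muscle. Of 12 fibre genes 4 were lower (Acta1, Ckm and the slow-fibre genes Myh7 and Tnnt1), with an array mean of 11.99 to 12.41 in young and 11.63 to 12.34 in aged muscle. Of 8 macrophage genes 3 were higher, with a mean of 6.54 to 7.08 in young and 6.54 to 7.74 in aged muscle. Of 14 hepatocyte genes 3 and of 8 fibroblast genes 2 were lower. Of 7 adipocyte genes 0 passed by limma, but the aged minus young difference was above 0 for all 7, with a median of 0.64, larger than the differences of Rora and Bhlhe40. The adipocyte genes nearest the threshold were Retn (0.81, adjusted p = 0.0522), Lep (0.91, 0.0525) and Adipoq (0.94, 0.0637). The hepatocyte mean ran from 6.14 to 10.0 in young and from 5.84 to 8.33 in aged muscle, the fibroblast mean from 8.09 to 8.92 and from 7.67 to 10.3, and the adipocyte mean from 7.24 to 9.61 and from 7.20 to 10.0. Of 4 Schwann cell and nerve genes 1 was lower, and of 3 blood genes, with means of 4.23 to 4.96 and 4.35 to 4.86, none passed. The hepatocyte, fibre, Schwann cell and blood lists held no rhythmic gene with the ages together, the endothelial and macrophage lists 3 of 8 each, the fibroblast list 2 of 8 and the adipocyte list 1 of 7. Over all genes the share was 3.6%.

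The genes whose levels followed each member most closely over the 32 arrays were looked up among all genes, as a description of arrays that share the times of day. For Nr1d1 they were Pfkfb3, an activator gene of glycolysis (r = 0.868), Cecr2 (0.851) and Hs3st5 (0.792), and the most opposite were Glul, the glutamine synthetase gene (-0.871), and Banp (-0.869). For Nr1d2 they were Per3 (0.859), 1810013L24Rik (0.835) and Dbp (0.809), and the most opposite Miga2 (-0.760) and Klhl30 (-0.750). For Ciart they were Tef (0.802), Per3 (0.801) and Tmem86a (0.793), and the most opposite Ppp1r3c, a glycogen-targeting subunit gene of protein phosphatase 1 (-0.902), and Sdc4 (-0.852). The REV-ERB genes thus had different nearest genes, while Per3 was among the nearest of both Nr1d2 and Ciart.

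For Bhlhe40 the closest were Coq10b (0.780), Pdp1 (0.759) and Pln (0.753), and the most opposite Cry1 (-0.823) and Nfil3 (-0.815). For Bhlhe41 they were Parp8 (0.803), Sin3a (0.766) and Ky (0.765), and the most opposite Nfil3 (-0.871) and Ppp1r3c (-0.851). Nfil3, a repressor gene with REV-ERB and ROR response elements, was thus among the most opposite of both DEC genes. For Rora, which passed the age test and not the rhythm test, they were Atp13a5 (0.867), Crbn (0.852) and Dnttip2 (0.852), and the most opposite Rftn1 (-0.874) and Tmem14c (-0.848). All of these also differed with age (limma, adjusted p of 1.97e-06 or less), so r also holds the age difference. In the same order, r was 0.733, 0.510, 0.441, -0.783 and -0.327 within young muscle. Within aged muscle it was 0.530, 0.739, 0.739, -0.540 and -0.759.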

How the data were processed

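Total RNA of hindlimb muscle was measured on 32 arrays. The authors deposited log2 expression levels of 24479 probe sets, made with R 3.2.2, affy 1.44.1 and the robust multi-array average (RMA), per the submitters' processing notes. RMA normalizes the arrays by quantiles and shrinks the differences of weak genes. How the probe sets were defined, and on which build, is not given in the sources used here. Levels of different probe sets were not ranked. Of the probe sets, 23281 had 1 gene symbol, 0 several and 1198 none. Identifiers were set against RefSeq GRCm38.p6, which held 23156, for names and neighbours. Of 2 probe sets with 1 symbol the higher was kept, which left 23279 genes with no filter on level.

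Tests used limma 3.58.1 in R 4.3.3. A cosinor model with a mean, cosine and sine of 24 h per age was fitted to all 32 arrays, and rhythm was a moderated F test on cosine and sine. The age difference had ZT as an additive factor, its dependence on ZT a model of 16 groups, and the 12 h component added 12 h terms. P-values were adjusted by Benjamini-Hochberg over all genes, and at each ZT separately for single times, at 0.05. Standard errors of amplitudes and peak times are delta-method approximations. Fits were tested on simulated data. No pair of arrays was a duplicate, since the smallest root mean square difference of any pair was 0.237 and that of repeats 0.263 to 0.382.

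The members, the 15 gene lists (130 entries, 117 measured) and the tests were chosen with earlier results of these data known, so patterns shown here are no independent support. Named beside the members are the other measured ROR gene, up to 4 genes of each pathway list by rhythm p and by age difference, the 3 most alike and 2 most opposite genes over 32 arrays, and the nearest measured protein-coding neighbours. Further genes named within lists were picked after their values were seen. The alternatives tried were a replicate block, a level filter, quantile normalization, an intensity trend, array weights, ZT as a factor, each age alone, and leaving out arrays.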

Additional observations from a re-analysis of the deposited data

How the results depend on the processing

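Of the 6 genes, 5 passed the rhythm test in young, 5 in aged and 5 with the ages together, and 3 differed with age. Under the alternatives that keep both repeats these counts were 4 to 5, 4 to 5, 5 to 5 and 2 to 3. Leaving out arrays, from 1 array to all 16 of a repeat, gave 1 to 5 rhythmic genes for young, 1 to 5 for aged, 4 to 5 with the ages together and 1 to 3 that differed with age, and 0 to 1 called for a 12 h component or for a single pair of gene and ZT. The lowest rhythm counts are those of 16 arrays, without replicate 1 or without replicate 2, and so is the lowest age count, without replicate 2. With ZT as a factor Nr1d2 was called neither in young (limma, adjusted p = 0.207) nor in aged muscle (0.751), and it was called with the ages together (0.00692). With each age fitted alone it was not called in aged muscle (0.242). With array weights the age difference of Ciart was -0.20 (adjusted p = 0.0517), one of 15 of 40 alternatives in which it was not called, with an adjusted p over all 40 from 0.00293 to 0.414. The age difference of Rora lay between 0.21 and 0.31 in all 40 alternatives.

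Whether a repeat number marks a shared sampling day is not known, so the arrays were not paired. Over 120 pairs of groups the correlation of same-numbered deviations had a median of 0.027 and ran from -0.23 to 0.31, and it was over 0.1 in 32. A fit with the replicate block gave 5, 5 and 5 rhythmic genes, 3 that differed with age and 0 in the other tests, with an adjusted p of 0.0368 for the age difference of Ciart.

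Counts over all genes moved more. Against 448 rhythmic genes for young, 162 for aged and 837 together, ZT as a factor gave 104, 32 and 309, and the 26 arrays without hepatocyte transcripts 255, 108 and 585. Each age alone gave 292 in young and 98 in aged, and array weights gave 255 in aged. Without replicate 1 the counts were 35, 8 and 150, and without replicate 2 77, 20 and 224. The 3998 genes that differed with age became 1781 and 1617 there. The 182 pairs of gene and ZT became 392 with array weights and 85 without the 6 arrays, and 120 to 361 without 1 array. Genes whose age difference depends on ZT ran from 0 to 11 and those with a 12 h component from 0 to 3 when arrays were left out. The tests over 16 groups could not be fitted without replicate 1 or without replicate 2, since no residual degrees of freedom remain.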

Other observations

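The genes that lie beside the members on the chromosome gave a mixed picture. Over all genes 3.6% were rhythmic with the ages together, and 9.67% were higher and 7.51% lower in aged muscle. Thra, the thyroid hormone receptor α gene, overlaps Nr1d1 from the opposite strand, and its level was rhythmic with the ages together, with an amplitude of 0.23 and a peak at ZT 4.66 (limma, adjusted p = 5.74e-05), and lower in aged muscle by -0.16 ± 0.044 (SE, n = 32; adjusted p = 0.0124). Whether probes of these overlapping genes share signal was not tested. Msl1, on the other side, was rhythmic with the ages together and peaked at ZT 2.01 (adjusted p = 0.00208). The remaining 10 neighbours were not rhythmic by limma with the ages together, and among them Thrb, the thyroid hormone receptor β gene beside Nr1d2, was higher in aged muscle by 0.27 (adjusted p = 0.000261) and Rpl15 by 0.31 (0.00579). Sumf1 beside Bhlhe40 was higher by 0.13 (0.0251), while Mrps21 beside Ciart was lower by -0.46 (2.88e-06) and Sspn beside Bhlhe41 by -0.31 (0.000294). Vps13c, Ice2, BC028528, Edem1 and Rassf8 did not pass the age test.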
